A study of Mus musculus with 48 samples.

Results

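The Iroquois genes Irx1, Irx2, Irx3 and Irx5 and the GATA genes Gata2 and Gata3 encode transcription factors whose mRNAs were followed here in the cortex and whole brain of male wild-type (WT) and Tg2576 mice. These 6 genes were taken from the 19752 genes that a probe of the mRNA arrays named through its RefSeq transcript. Irx2 had more than 1 probe and was read from the brighter one. The genes were chosen by their intensities in the cortex at 17 months of age, where Irx2 and Gata3 differed between the genotypes. Values of the 17-month-old cortices are therefore given as a description, without a test, and tests are given for the comparisons between other groups.

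WT mice were of the strain C57BL/6J. Tg2576 mice carried Tg(APPSWE)2576Kha, which drives the Swedish mutant of human amyloid precursor protein from the hamster prion protein promoter and serves as a model of Alzheimer's disease. Each of the 8 groups, made of the 2 genotypes, the ages of 10 and 17 months and the tissues cortex and whole brain, had 3 samples with 1 array each. The labels do not say whether the cortex and whole brain samples came from the same mice, nor whether WT mice were littermates of Tg2576 mice, so that strain background and transgene cannot be told apart.

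Iroquois proteins are homeodomain factors that pattern the embryo. Their genes lie in clusters, with Irx1, Irx2 and Irx4 side by side on one chromosome and Irx3, Irx5 and Irx6 on another. In the developing brain they are expressed in the diencephalon, midbrain and hindbrain and are largely absent from the telencephalon, the part that forms the cortex. Gata2 and Gata3 are zinc finger factors that bind the sequence GATA. They are best known from blood development, and in the nervous system they specify GABAergic neurons of the midbrain, hindbrain and diencephalon, while Gata3 also acts in serotonergic neurons of the raphe nuclei. Gata2 is also active in endothelial cells.

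Irx2 and Gata3 are the members that differed most in the cortex of 17 months, and the 250 bases before their transcription start in RefSeq (build GRCm38.p6) are shown 5′ to 3′ on the strand of the gene, with matches to the GC box GGGCGG on either strand in capitals. The Irx2 window was chr13:72628570-72628819 on the plus strand and the Gata3 window was chr2:9878601-9878850 on the minus strand.
Irx2: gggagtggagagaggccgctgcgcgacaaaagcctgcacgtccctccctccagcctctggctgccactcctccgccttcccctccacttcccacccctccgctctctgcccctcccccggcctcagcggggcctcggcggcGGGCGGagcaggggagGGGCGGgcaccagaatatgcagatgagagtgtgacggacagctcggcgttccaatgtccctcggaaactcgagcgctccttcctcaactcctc
Gata3: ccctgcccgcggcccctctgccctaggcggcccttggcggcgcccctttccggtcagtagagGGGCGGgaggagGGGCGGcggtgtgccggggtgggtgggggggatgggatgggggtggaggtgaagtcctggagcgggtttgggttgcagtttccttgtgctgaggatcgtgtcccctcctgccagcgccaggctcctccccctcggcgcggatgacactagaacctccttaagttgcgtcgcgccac

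Each of these windows held 2 GC boxes, which 32.7% of 32817 promoter windows of the same length held at least once. The GC content was 68.4% for Irx2 and 70% for Gata3, with a median of 52.4% over all windows. Neither window held the motif NGATAN, with A or T as its first and A or G as its last base, on either strand, which 26.6% of all windows held, nor the Iroquois motif ACANNTGT, which reads the same on both strands and was found in 6.32% of windows. Windows were at hand for 4 of the 6 members. The motif matches describe the letters of these windows and were not linked to any binding measurement.

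A level is given here as the log2 of the background-subtracted intensity minus the 75th percentile of its array, so that 0 is the brightness of the probe at that rank, and levels of different probes are not compared with each other. A probe is called detected on an array if Feature Extraction marked it well above background. The 75th percentile of intensity lay between 507 and 824 over the 24 arrays and 34155 to 41087 probes were detected per array. The probe of Irx1 and that of Gata2 were detected on 24 arrays, Irx3 on 20, Irx2 on 19, Gata3 on 18 and Irx5 on 12. The number of arrays limits the precision, and p-values measure the spread between samples that the labels call replicates without saying that each was a separate mouse. The arrays lay on 3 slides. Slide 1 held the 10-month-old cortices and WT replicates 1 and 2 of the 17-month-old cortices, slide 2 held the other 17-month-old cortices, the 10-month-old WT whole brains and Tg2576 replicate 1 of the 10-month-old whole brains, and slide 3 held the remaining whole brains. The probe of mouse App read between 5.77 and 6.42 on all arrays. Its group means in cortex at 17 months were 6.35 for WT and 6.33 for Tg2576 mice and overlapped. In whole brain at 10 months the 3 Tg2576 arrays, at 5.96 to 6.11, lay above the 3 WT arrays, at 5.77 to 5.82 (limma adjusted p = 0.431). Whether the probe detects the human transgene is not stated, so that it is no check of the labels.

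In the cortices of 17-month-old mice the Iroquois and GATA members were all brighter on average in Tg2576 than in WT mice, by 0.51 to 3.57 on the log2 scale. Irx2 and Gata3 had the largest differences of the 6. In 3 of the 6 members (Irx2, Gata2 and Gata3) the groups did not overlap, each time with Tg2576 higher. Of 38889 probes that passed the filter for detection (at least 2 arrays in 1 of the groups), 8.75% did not overlap with Tg2576 higher. Since this contrast was used to propose the genes, the count is not read against that share.

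Irx2 was at -6.87, -3.39 and -6.38 in WT replicates 1, 2 and 3 and at -1.81, -1.15 and -2.98 in the Tg2576 replicates. It was detected in WT replicate 2 alone and in all 3 Tg2576 mice. WT replicate 2 stood between the other WT arrays and the Tg2576 arrays, without reaching them. The means were -5.55 ± 1.88 and -1.98 ± 0.93 (SD, n = 3), a difference of 3.57 with a standard error of 1.21 from the group SDs. The WT mean includes 2 arrays not well above background, so that no fold is given. A second, dimmer probe of Irx2 was detected in 3 of 3 Tg2576 and 0 of 3 WT cortices, and was at least 1.64-fold higher in Tg2576 mice, where the bound takes, for each WT array, the dimmest signal that still counted as detected. Its measured means were -4.91 ± 0.52 and -7.60 ± 0.56 (SD, n = 3).

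Gata3 was at -5.74, -3.33 and -5.80 in the WT cortices and at -1.50, -0.81 and -2.49 in the Tg2576 cortices. WT replicate 2 was again the highest WT array and the only one on which the probe was detected, and the groups did not overlap. The means were -4.96 ± 1.41 and -1.60 ± 0.85 (SD, n = 3), a difference of 3.36 with a standard error of 0.95, again with 2 WT arrays not well above background.

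Irx1, the cluster neighbour of Irx2, was at -2.37, -1.15 and -2.85 in WT and at -0.53, 0.07 and -1.52 in Tg2576 cortices. The groups overlapped through WT replicate 2 and Tg2576 replicate 3, and the difference was 1.46 with a standard error of 0.69. Irx3 was at -5.36, -1.63 and -5.41 in WT and at -1.82, -0.996 and -3.05 in Tg2576 cortices. Here WT replicate 2 lay above 2 of the Tg2576 arrays, and the difference of 2.18 had a standard error of 1.39. Irx5 was detected on no WT array and in Tg2576 replicates 1 and 2, at -4.71 and -3.93. Its Tg2576 mean of -5.10 ± 1.40 (SD, n = 3) was 1.43-fold above the bound for WT mice, whose measured mean was -6.70 ± 0.90. The Tg2576 mean includes the undetected replicate 3, which at -6.66 lay within the range of the WT arrays.

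Gata2 had the smallest difference of the set. It was at -2.69, -2.68 and -2.34 in WT and at -2.05, -1.85 and -2.27 in Tg2576 cortices. The lowest Tg2576 array was just above the highest WT array, and the difference was 0.51 with a standard error of 0.17. Slide 2 was the only slide with 17-month-old cortices of both genotypes. On it the 3 Tg2576 arrays exceeded WT replicate 3 by 2.19 for Irx1, 3.45 for Irx3 and 0.28 for Gata2 on average. Irx2, Irx5 and Gata3 were not detected on that WT array, and Irx2 and Gata3 were detected on all 3 Tg2576 arrays. With normexp correction of the median spot signals, which raises dim values, the differences were 1.42 for Irx2, 1.64 for Gata3, 0.96 for Irx3 and 0.38 for Irx5, and the same 3 members did not overlap. Without WT replicate 2 the groups did not overlap in 6 of 6 members, and without Tg2576 replicate 3 in 5. No share of all probes was taken for these counts, and 2 arrays lie apart from 3 more easily than 3 from 3.

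**Figure D1:**
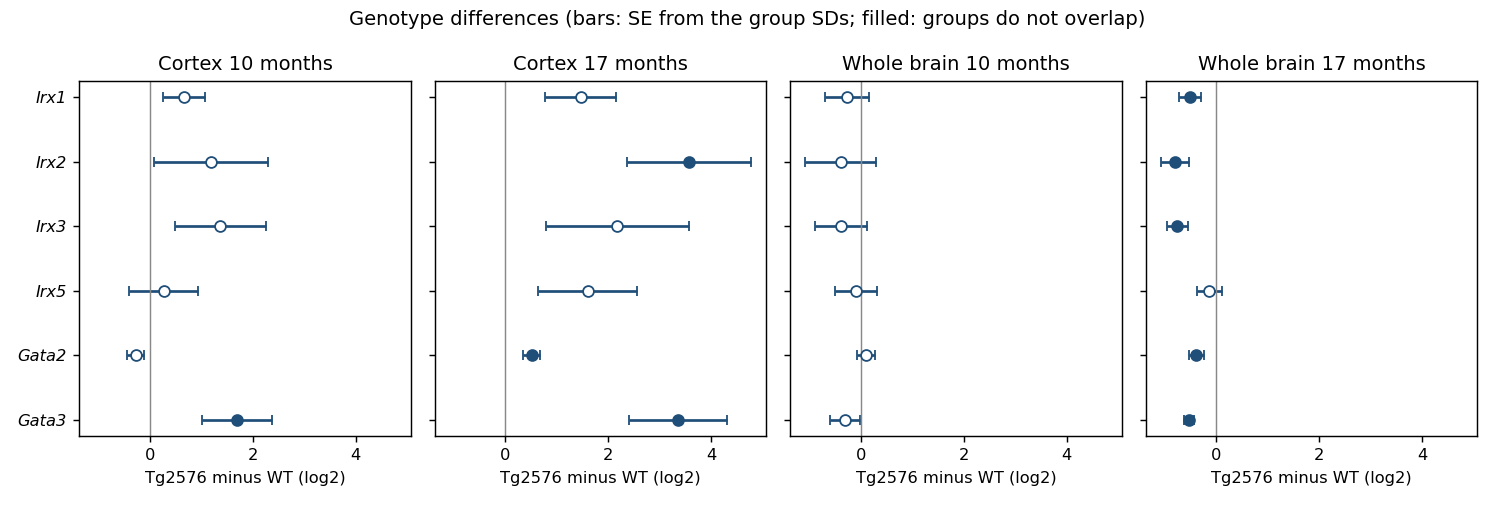
Difference between Tg2576 and WT means (log2, horizontal axis) for each member (vertical axis) in the 2 tissues at the 2 ages, with 3 arrays per group. Bars are standard errors from the group SDs and filled points are members whose groups do not overlap. At 17 months the differences are 0.51 to 3.57 in cortex and -0.81 to -0.14 in whole brain.

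Marker lists of other brain regions and cell types were read on the same arrays. They were chosen with earlier results of these data known. Shares of all probes, here and below, are therefore given beside their counts only for reference. The 8 markers of midbrain dopamine neurons summed to 14.2 to 15.2 (linear scaled intensity) in the WT and 17.8 to 32.0 in the Tg2576 cortices of 17 months, with a median log2 difference of 1.47, and 3 of 8 did not overlap with Tg2576 higher, as against 8.75% of all probes. The 10 markers of thalamus and habenula summed to 8.98 to 17.2 in WT and 14.2 to 29.6 in Tg2576 cortices, with all 10 higher on average, a median difference of 0.90 and 1 of 10 without overlap. That gene was Pou4f1, a POU factor of the habenula, which was at -4.40, -3.54 and -4.28 in WT and at -1.85, -0.67 and -2.32 in Tg2576 cortices. The Tg2576 arrays were all above the WT arrays. The hypothalamic markers summed to 9.76, 94.9 and 4.79 in WT replicates 1, 2 and 3 and to 12.6, 53.2 and 57.4 in the Tg2576 replicates, so that WT replicate 2, the highest WT array for Irx1, Irx2, Irx3, Irx5 and Gata3, was the highest of all there. The 8 markers of serotonin neurons summed to 2.62 to 3.78 in WT and 3.59 to 9.78 in Tg2576 cortices, and 0 of the 6 tested did not overlap. The choroid plexus markers summed to 9.45 to 21.9 and 22.2 to 59.3, with 2 of 6 higher without overlap, and the meningeal markers to 13.3 to 18.2 and 9.53 to 11.02, with 4 of 8 lower without overlap, against 7.20% of all probes. The cortical markers overlapped, at 39.2 to 64.8 and 39.9 to 53.6, and of the 10 Hox and other hindbrain genes measured 0 to 1 were detected per WT and 0 to 3 per Tg2576 cortex. The part of these differences in the levels of the Irx and Gata genes was not tested. In tissue RNA, more cells of a type and more RNA per cell cannot be told apart.

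**Figure D2:**
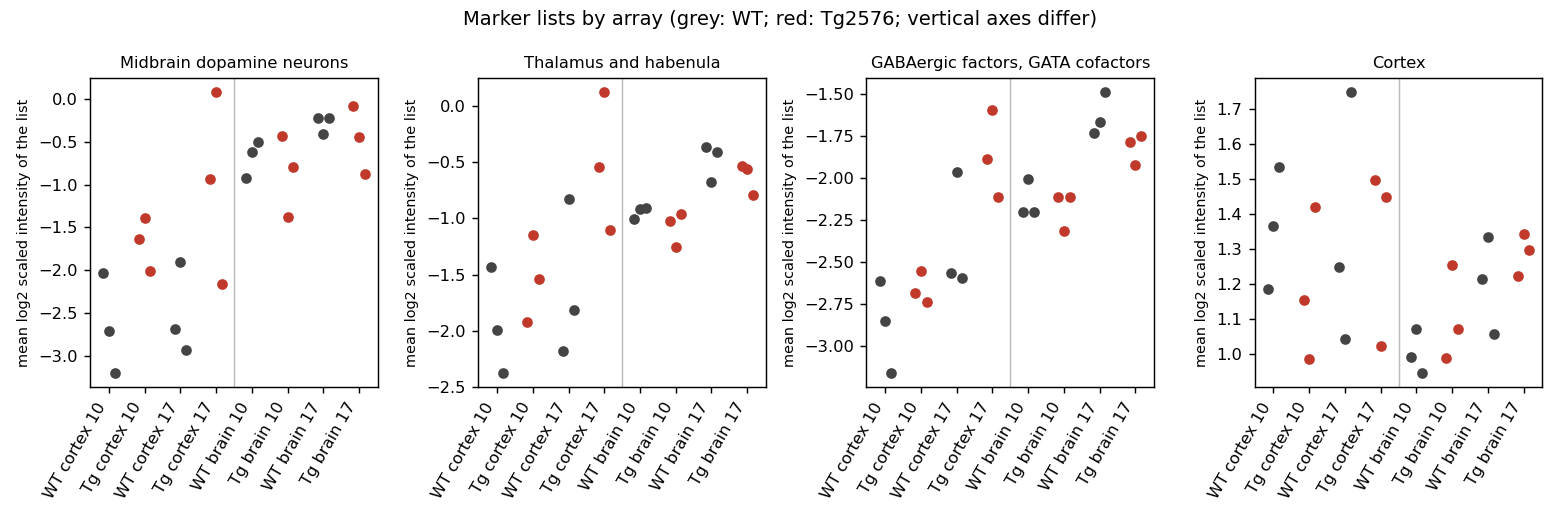
Mean level of the probes of 4 marker lists (log2 scaled intensity, vertical axes, which differ between panels) on each of the 24 arrays by group, with WT in grey and Tg2576 in red. In 17-month-old cortex the lists of dopamine neurons and of thalamus and habenula have their highest value in Tg2576 replicate 2, the array with the highest Irx1, Irx2, Irx3, Irx5, Gata2 and Gata3, and their highest WT value in WT replicate 2.

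Transcription factors linked to GABAergic neurons of the midbrain and hindbrain, together with GATA cofactors, formed a list of 17 genes. At 17 months 14 of the 15 that passed the filter had higher means in Tg2576 than in WT cortex. Their median difference was 0.40, against 0.01 for all probes, and 2 of 15 did not overlap with Tg2576 higher, near the 8.75% of all probes. Tal1, a basic helix-loop-helix partner of the GATA factors, was at -2.12, -1.78 and -2.05 in WT and at -0.83, -0.45 and -1.42 in Tg2576 cortices. Pax7, a factor of the dorsal midbrain, was at -5.65, -4.55 and -4.93 in WT and at -3.36, -2.96 and -3.99 in Tg2576 cortices. Among the other family members, Irx4, Irx6 and Gata5 were detected on all 24 arrays, Gata4 on 9 and Gata1 and Gata6 on none. In 17-month-old cortex, 0 of the 4 that could be compared lay apart between the genotypes, with differences from -0.21 for Gata4 to 0.61 for Irx6.

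In cortex at 10 months the members were dim, and limma called 0 of the 5 that passed the filter at an adjusted p under 0.05, as it called 0% of all probes. At an unadjusted p under 0.05 it gave 1 of the 5, Gata3, where it gave 9.95% of all probes. Irx2, Irx3 and Gata3 passed the filter only through the Tg2576 arrays, so that their p-values are no independent evidence of a difference. The methods' t-test with Benjamini-Hochberg adjustment also gave 0. Gata3 was at -5.57, -6.95 and -7.81 in WT and at -4.88, -4.90 and -5.46 in Tg2576 cortices. It was detected in 0 of 3 WT and 2 of 3 Tg2576 mice. The Tg2576 mean, which includes an undetected array, was 1.78-fold above the bound for WT mice. Its measured means were -6.78 ± 1.13 in WT and -5.08 ± 0.33 in Tg2576 mice (SD, n = 3). Its limma adjusted p was 0.45. Gata3 was the 1 member of 6 without overlap, and 8.29% of all probes did not overlap in that direction. Irx1 differed by 0.66 with a limma standard error of 0.34 and an adjusted p of 0.559, Irx2 by 1.18 with 0.91 and 0.671, and Irx3 by 1.37 with 0.72 and 0.567. WT replicate 1 was the highest WT array for these 3 genes, and their groups overlapped. Gata2 was the only tested member lower on average in Tg2576 mice, by -0.28 (adjusted p = 0.566), and Irx5 was detected on none of these 6 arrays.

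In whole brain at 17 months the order of the genotypes was the other way round. All 6 members had lower means in Tg2576 than in WT mice, with differences from -0.81 to -0.14, and 5 of 6 did not overlap, where 9.26% of all probes did not overlap with Tg2576 lower. Limma gave an unadjusted p under 0.05 for those 5, as for 13% of all probes, and an adjusted p under 0.05 for 0 of 6, as for 0% of all probes. The adjusted p ranged from 0.342 to 0.773, and the methods' t-test with Benjamini-Hochberg adjustment also called 0.

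Gata3 was at -1.04, -1.04 and -0.98 in the WT and at -1.39, -1.56 and -1.71 in the Tg2576 whole brains of 17 months. It had the tightest WT values of the set, and its difference was -0.54 with a limma standard error of 0.10 (adjusted p = 0.342). Irx2 was at -0.96, -1.17 and -0.78 in WT and at -1.29, -1.94 and -2.10 in Tg2576 brains, a difference of -0.81 with a standard error of 0.23 (adjusted p = 0.342). The dimmer probe of Irx2 differed by -0.18 and overlapped.

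Irx1 was at -0.09, -0.25 and 0.36 in WT and at -0.32, -0.65 and -0.56 in Tg2576 brains, with a difference of -0.51. Irx3 was at -1.08, -1.13 and -0.68 in WT and at -1.43, -1.90 and -1.85 in Tg2576 brains, with a difference of -0.76. Gata2 was at -1.53, -1.55 and -1.41 in WT and at -1.72, -1.79 and -2.17 in Tg2576 brains, with a difference of -0.40. In these 3 genes each Tg2576 array was below each WT array, while Irx5 overlapped between -4.49 and -3.89 in WT and -4.64 and -4.07 in Tg2576 brains. All of these arrays lay on slide 3. Of the list of GABAergic factors and GATA cofactors, 5 of 14 were lower without overlap, as against 9.26% of all probes. Markers of the hindbrain and cerebellum were lower too, with 2 of 5 and 4 of 7 without overlap and summed levels of 0.323 to 0.668 against 0.134 to 0.278 and of 16.3 to 49.6 against 8.38 to 14.1 for WT and Tg2576 brains. Of the 10 hindbrain genes measured, 5 were detected on each WT brain and 1 to 2 on each Tg2576 brain. Some of the 5 compared thus passed the filter only through the WT arrays, where they are high, and their count is no independent evidence. The part of these markers in the result was not tested.

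In whole brain at 10 months the genotypes overlapped in all 6 members. Differences ranged from -0.39 to 0.10 and adjusted p from 0.601 to 0.916, with 0 of 6 members and 0% of all probes called by limma, 0 members at an unadjusted p under 0.05 and 0 by the methods' t-test. Gata3 was at -2.76, -2.08 and -2.05 in WT and at -2.35, -2.94 and -2.56 in Tg2576 brains, and Irx2 at -3.22, -1.87 and -1.78 and at -1.80, -3.56 and -2.69. WT replicate 1 and Tg2576 replicate 2 were the low arrays for both genes. With the slide as a block, where only Tg2576 replicate 1 shared a slide with the WT arrays, the differences of Irx1, Irx2, Irx3 and Irx5 turned positive, at 0.21 to 0.49.

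The change of the genotype difference was tested where the 17-month-old cortices were not needed. Between 10 and 17 months in whole brain, limma called 0 of 6 members and 0% of all probes, and 1 member, Gata2, had an unadjusted p under 0.05 where 16.8% of probes did. Its genotype difference was lower at 17 months by 0.49, with a standard error of 0.21 (adjusted p = 0.279). Between cortex and whole brain at 10 months, 0 of 6 members and 0% of probes were called, and Gata3 alone had an unadjusted p under 0.05 where 10.9% of probes did, with a difference of -2.01, a standard error of 0.66 and an adjusted p of 0.436. Gata3 was detected on 0 of 3 WT cortices of that age, so that the size of this difference rests on values near background. Tissue and slide cannot be told apart at 10 months.

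In the groups of 10 months all 6 members had higher means in whole brain than in cortex, and 0 of 6 were called by limma in either genotype. Gata3, Irx2 and Irx3 had the largest tissue differences in WT mice. Gata3 was undetected in 3 of 3 WT cortices and at least 12.3-fold higher in WT whole brain (limma adjusted p = 0.0628), with measured means of -6.78 ± 1.13 and -2.30 ± 0.40 (SD, n = 3). Irx2 was higher by 4.24 with a standard error of 0.90 (adjusted p = 0.085), Irx3 by 3.61 with 0.58 (adjusted p = 0.0691) and Irx1 by 2.06 with 0.38 (adjusted p = 0.076). Irx5 was 1.58-fold above the bound for WT cortex, with an undetected array in its whole brain mean (limma adjusted p = 0.112). Gata2 differed by 0.20 with a standard error of 0.17 (adjusted p = 0.502). The groups did not overlap in 5 of 6 members, all but Gata2, where 16.6% of all probes were higher in whole brain without overlap. Limma called 0.0101% of all probes. An unadjusted p under 0.05 was found for 5 members and for 23.7% of all probes. Irx2, Irx3, Irx5 and Gata3 passed the filter only through the whole brain arrays, where they are high, so that their p-values are no independent evidence of a difference. By the methods' t-test with Benjamini-Hochberg adjustment 0 members were called.

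In Tg2576 mice of 10 months the tissue differences were 0.58 for Gata2, 1.14 for Irx1, 1.86 for Irx3, 2.47 for Gata3 and 2.66 for Irx2. Irx5 in whole brain was 1.16-fold above the bound for cortex, with an undetected array in its whole brain mean. All 6 members had an unadjusted p under 0.05, as did 22.9% of probes, and 5 of 6, all but Irx3, were higher without overlap, as were 14.8% of probes. Irx5 passed the filter only through the whole brain arrays, where it is high, so that its p-value is no independent evidence of a difference. The adjusted p ranged from 0.0655 for Gata3 to 0.149 for Irx3, so that 0 of 6 were called, as were 0% of probes, and the methods' t-test with Benjamini-Hochberg adjustment also called 0. In a model of all 24 arrays, which takes in the 17-month-old cortices that chose the genes, 4 members were called in WT mice and 2 in Tg2576 mice. The cortices of 10 months lay on slide 1 and the whole brains on slides 2 and 3, so that tissue and slide cannot be told apart.

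At 17 months the tissue comparison is given without a test. In WT mice all 6 members were higher in whole brain without overlap, as were 17.8% of all probes, with differences from 1.07 for Gata2 to 4.58 for Irx2. In Tg2576 mice 0 of 6 lay apart, where 12.7% of probes were higher without overlap, and the differences ran from 0.05 for Gata3 to 0.75 for Irx5. The mean of Gata3 was -1.60 ± 0.85 in the Tg2576 cortex and -1.55 ± 0.16 in the Tg2576 whole brain, and that of Irx2 was -1.98 ± 0.93 and -1.78 ± 0.43 (SD, n = 3).

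With age, whole brain of WT mice showed higher levels of the whole set. Between 10 and 17 months the difference was 1.06 ± 0.27 for Irx1, 1.32 ± 0.39 for Irx2, 1.32 ± 0.29 for Irx3, 1.07 ± 0.22 for Irx5, 1.39 ± 0.14 for Gata2 and 1.28 ± 0.20 for Gata3 on the log2 scale (limma estimate and standard error). Limma called 5 of 6 members higher, where 12.7% of all probes were called higher. The adjusted p was 0.00469 for Gata2, 0.00851 for Gata3, 0.0179 for Irx5, 0.0222 for Irx3 and 0.0323 for Irx1, and Irx2 missed the threshold at 0.0507. Each 17-month-old array was above each 10-month-old array for all 6 genes, as for 21.7% of all probes. The 10-month-old WT whole brains lay on slide 2 and the 17-month-old ones on slide 3, so that age and slide cannot be told apart. Without WT replicate 1 or replicate 3 of the 17-month-old brains 3 members were called, and in the model of all 24 arrays 1 was called.

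Some genes of the marker lists were also higher at 17 months in WT whole brain, and the lists as sets were not tested. In the list of GABAergic factors and GATA cofactors 7 of 15 were called higher and 0 lower, with a median difference of 0.56. Of all probes 12.7% were called higher. Zfpm1, the GATA cofactor known as friend of GATA, rose by 1.03 (adjusted p = 0.00948). It was not particular to whole brain, with means of 1.92 at 10 and 2.95 at 17 months there and of 2.14 and 2.96 in WT cortex. At 10 months Ldb1 and Lef1 were near equal too, at 1.47 and -1.50 in WT cortex and 1.43 and -1.51 in WT whole brain. Sox14, a factor of GABAergic neurons of the diencephalon, rose by 1.40 (adjusted p = 0.00495), and Lhx5 by 1.22 (adjusted p = 0.00652). Nkx6-1, Pax7, Lhx1 and Ldb1, a bridging protein of LIM and GATA complexes, rose by 0.41 to 1.13. Tal1 differed by 0.30 and was not called (adjusted p = 0.207). In the list of thalamus and habenula 4 of 10 were called higher (Tcf7l2, Lef1, Prkcd and Pou4f1, by 0.51 to 0.81), and in that of serotonin neurons 1 of 7, Htr5b, which differed by 0.30. Irx6 was the called family member outside the set, with 0.54 (adjusted p = 0.00802), and Irx4 and Gata5 were not called. Endothelial and hindbrain markers were higher as well, with 4 of 7 and 3 of 5 called and endothelial sums of 7.21 to 8.54 at 10 and 12.5 to 14.1 at 17 months. Of the 10 hindbrain genes measured, 0 to 3 were detected per brain at 10 months and 5 at 17 months. Some of the 5 tested thus passed the filter only through the 17-month-old arrays, where they are high, and their count is no independent evidence. The part of these markers in the age difference of the set was not tested.

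In Tg2576 whole brain the age differences ran from 0.82 for Irx1 to 1.06 for Gata3. Limma called 2 of 6 members higher, where 6.57% of all probes were called higher. These were Gata2, by 0.90 with a standard error of 0.14 (adjusted p = 0.0193), and Gata3, by 1.06 with 0.17 (adjusted p = 0.0208). The groups did not overlap in 5 of 6 members, all but Irx2, where 18.5% of all probes were higher at 17 months without overlap. Tg2576 replicates 2 and 3 of 10 months shared slide 3 with the 17-month-old brains. With the slide as a block the differences were 0.92 for Gata2, 1.20 for Gata3 and 1.11 for Irx1, with adjusted p of 0.0487, 0.0394 and 0.048. Without either replicate 1 or 2 of the 17-month-old brains, or either replicate 2 or 3 of the 10-month-old brains, 0 members were called. Of the list genes past the threshold, Zfpm1 rose by 1.17 (adjusted p = 0.00806) and Lef1, Tcf7l2 and Ramp3 by 0.48 to 0.87. They are named because they passed that threshold and do not stand for their lists, which were not tested as sets.

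In cortex the age differences are given without a test because they use the 17-month-old arrays. In WT mice they were 0.996 for Irx1, 0.98 for Irx2, 1.76 for Irx3 and 0.53 for Gata2. Gata3 was detected on 0 of 3 WT cortices at 10 months and on 1 of 3 at 17 months. Its measured means were -6.78 and -4.96, and no fold is given. Irx5 was detected at neither age. In Tg2576 mice they ran from 1.32 for Gata2 to 3.48 for Gata3. Irx5 at 17 months was 1.41-fold above the bound for 10 months, with an undetected array in its 17-month mean. Among WT mice Gata2 alone lay apart between the ages, where 16.3% of all probes were higher without overlap. Without WT replicate 1 of the 10-month-old cortices 5 members lay apart, but no share of all probes was taken for that setting. Irx2 was detected on 1 of 3 WT cortices at each age. In Tg2576 mice 5 of 6 members, all but Irx5, were higher at 17 months without overlap, where 19.2% of all probes were. Gata3 differed by 3.48 and Irx2 by 3.37 between the ages, with standard errors of 0.53 and 0.72. The Tg2576 cortices of 10 months lay on slide 1 and those of 17 months on slide 2, so that age and slide cannot be told apart there.

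Over all 8 groups, the lowest mean of Irx1, Irx2, Irx3, Irx5 and Gata3 was that of the 10-month-old WT cortex, and the highest mean of all 6 members was that of the 17-month-old WT whole brain. For Irx2 the means ran from -6.53 in 10-month-old WT cortex through -5.55 in 17-month-old WT cortex and -5.35 in 10-month-old Tg2576 cortex, which overlapped each other. A gap of 2.66 followed, and the remaining groups lay at -2.68 and -2.29 in the 10-month-old Tg2576 and WT whole brains, -1.98 in the 17-month-old Tg2576 cortex, -1.78 in the 17-month-old Tg2576 whole brain and -0.97 in the 17-month-old WT whole brain. The 10-month-old Tg2576 cortex and whole brain on the 2 sides of the gap did not overlap, but WT replicate 2 of the 17-month-old cortex, at -3.39, was above the lowest of these whole brains, at -3.56. Neighbours among the higher groups overlapped, apart from the last pair. Gata3 had the same order but for the positions of the 10-month-old Tg2576 cortex at -5.08 and the 17-month-old WT cortex at -4.96, and the gap from there to the 10-month-old Tg2576 whole brain was 2.34. The 17-month-old Tg2576 cortex was thus placed between whole brain groups in 5 of the 6 members and was followed by Tg2576 whole brain of the same age in all 6. For Gata2 the group means were instead ordered by age, with the 4 groups of 10 months from -3.37 to -2.80 and the 4 groups of 17 months from -2.57 to -1.50. Single arrays of the ages overlapped, since the highest 10-month-old WT whole brain was at -2.63 and the lowest 17-month-old WT cortex at -2.69.

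Across the 24 arrays, Irx2 and Gata3 had a Pearson r of 0.98, and the pairs among Irx1, Irx2, Irx3, Irx5 and Gata3 ranged from 0.85 to 0.98. Gata2 had lower values, with r from 0.67 with Irx2 to 0.76 with Irx1. Over the 12 cortex arrays the r of Irx2 and Gata3 was 0.97 and that of Gata2 with the others 0.58 to 0.71. Over the 12 whole brain arrays Gata2 had r from 0.79 with Irx2 to 0.94 with Gata3, and Irx2 and Gata3 had 0.92, below the 0.99 of Irx1 and Irx3 and the 0.98 of Irx2 and Irx3. These values describe arrays that share tissue, age and slide, and no test was made of them.

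**Figure D3:**
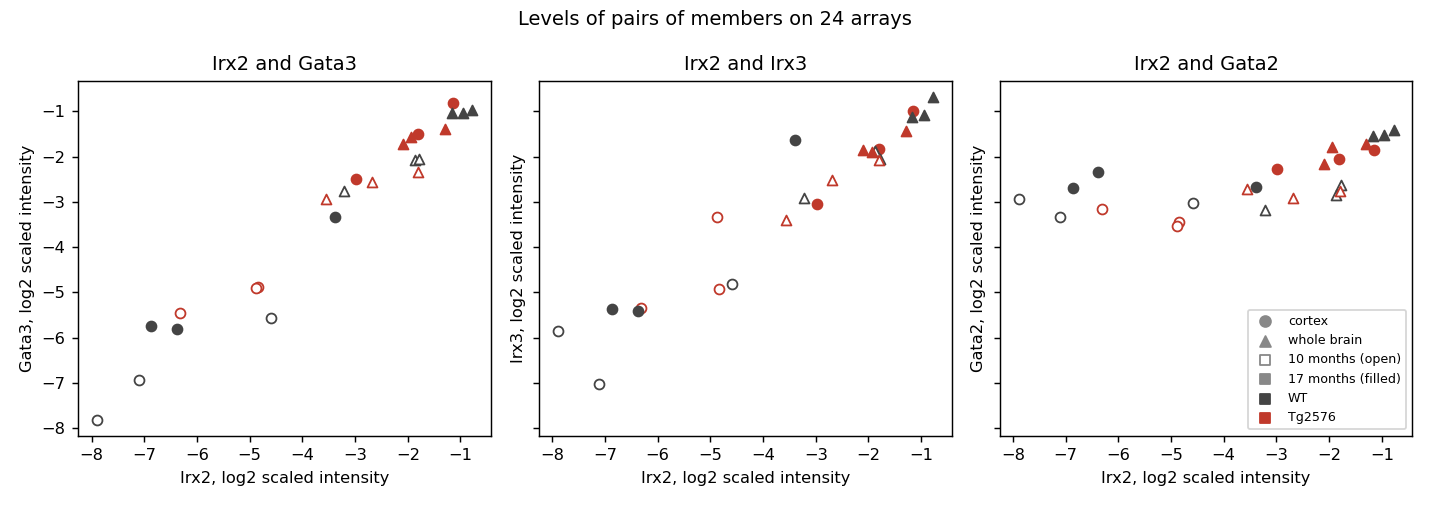
Levels of Gata3, Irx3 and Gata2 (log2 scaled intensity, vertical axes) against that of Irx2 (horizontal axes) on the 24 arrays, with circles for cortex, triangles for whole brain, open symbols for 10 and filled symbols for 17 months, WT in grey and Tg2576 in red. Gata3 follows Irx2 (r = 0.98), while Gata2 spans a narrower range (r = 0.67). At the low end Irx2 and Gata3 were not well above background, and the arrays include the 17-month-old cortices that chose the genes.

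Of the 15768 genes detected on at least 12 of the 24 arrays, those with the highest r to each member were named, up to 5 for each. For Irx2 these were Gata3 (0.98), the glycine receptor subunit gene Glra1 (0.97), the transcription factor gene Ebf3 (0.96), Irx1 (0.96) and Irx3 (0.96). For Gata3 they were Irx2, Irx1, Ebf3, Pou4f2 and Nrip2, with r from 0.95 to 0.98. Glra1 was at -6.29, -4.14 and -5.96 in WT and at -2.89, -2.52 and -4.17 in Tg2576 cortices of 17 months, and Ebf3 at -2.82, -0.96 and -2.95 and at -0.24, 0.72 and -1.27. Both had the highest WT value in replicate 2 and the highest Tg2576 value in replicate 2, as had Irx2 and Gata3. They were picked for their r over arrays that include these, so that the shared order is no independent evidence of likeness.

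The genes most like Irx1 were Sfrp5, Phlda3, Irx6, Irx3 and Ttc39a (0.97 to 0.98), and those most like Irx3 were Ebf3, Irx1, Sfrp5, Gm8909 and Irx2 (0.96 to 0.97). Irx5 was most like P2rx5, Clcn5, Pax3, Pou4f1 and Lingo4 (0.91 to 0.93). Gata2 shared none of these, and Rtl8c, Rbpms, Kif1c and Trip10 were among the genes most like it (0.94 to 0.95). Over the 12 cortex arrays, with 15950 genes compared, the most alike were Rimkla for Irx1, Glra1 for Irx2, Ebf3 for Irx3, Ndufb8 for Irx5, Nfasc for Gata2 and Irx1 for Gata3, with r from 0.93 to 0.98. Gata3 was there among the 5 genes most like Irx1 and Irx2, and both were among the 5 most like Gata3.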

How the data were processed

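Cy3-labelled total RNA of 24 samples was hybridized to 1-colour Agilent SurePrint G3 Mouse GE arrays. Spot intensity values were deposited as written by Agilent Feature Extraction 10.7.3.1, with the background already removed, without scaling across arrays, and with quality marks. The authors also deposited log2 values per probe. On each array at least 99.8% of these equalled, to 0.01, the log2 intensity less 1 constant per array, and they served as an alternative. The miRNA arrays of the series were not used.

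Outlier spots were left out and spots of a probe averaged. The log2 intensity was reduced by the 75th percentile of the array. Of 55681 probes, 26056 were named through RefSeq transcripts. Probes that were detected on 2 or more arrays in any group compared were tested with limma 3.58.1 in R 4.3.3, using the arrays of the groups compared, with Benjamini-Hochberg adjustment over all probes and a threshold of 0.05. A group with no detected array has only a bound, taken per array as the higher of the probe's value and the lowest value well above background. Undetected arrays of the brighter group enter its mean as measured, and the fold is then no strict lower limit. Further alternatives were quantile, median and normexp scaling, no filter, a model of all arrays, slide or replicate blocks, the mean of a gene's probes, each array left out and the methods' t-test, the unpaired test the study names. The steps were tested on simulated data.

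The members and the 19 marker lists were chosen with earlier results of these data known. The genes named are the members, App, list genes past the threshold (or without overlap in 17-month-old cortex) in the lists of family members, GABAergic factors, serotonin neurons and thalamus and habenula, and the 5 genes most like each member, of which 1 is not reported here. Replicate numbers were not taken to pair samples, since in every comparison of groups at least 1 pair of same-numbered arrays correlated under 0.1 in its deviations from the group means.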

Additional observations from a re-analysis of the deposited data

Results flagged for a closer look

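At 17 months the genotype difference of Irx2, Gata2 and Gata3 ran in opposite directions in the 2 tissues, with every Tg2576 array above every WT array in cortex and every Tg2576 array below every WT array in whole brain. The differences were 3.57 in cortex and -0.81 in whole brain for Irx2, 0.51 and -0.40 for Gata2 and 3.36 and -0.54 for Gata3, on the log2 scale with 3 arrays per group. Irx2 and Gata3 were detected on 1 of 3 WT cortices, so that the size of their cortex differences rests on values near background. In whole brain limma called 0 of 6 members, with a lowest adjusted p of 0.342, and the dimmer probe of Irx2 overlapped. The difference between the tissues was not tested, because the cortex values were used to propose the genes.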

How the results depend on the processing

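Counts of members called or without overlap were recomputed under each alternative, and 185 stayed within 1.5 times the value given above while 30 did not. With normexp on median spot signals the members called were 4 for tissue in WT mice of 10 months, 2 for tissue in Tg2576 mice of 10 months and 5 for age in Tg2576 whole brain. In a model of all 24 arrays, 17-month-old cortices included, they were 4, 2 and 1, and 1 for age in WT whole brain. For tissue at 10 months, Irx2, Irx3, Irx5 and Gata3 in WT and Irx5 in Tg2576 mice passed the filter only through the whole brain arrays. Quantile normalization and centring on the array median each gave 1 for tissue in Tg2576 mice of 10 months. Without the filter on dim probes 3 were called for age in WT whole brain. The methods' t-test after Benjamini-Hochberg adjustment called 2 for age in WT and 0 in Tg2576 whole brain. Its unadjusted p was under 0.05 for 3 members for genotype in whole brain of 17 months, 5 and 4 for tissue in WT and Tg2576 mice of 10 months and 1 for the change of the genotype difference between tissues. Over all probes the counts called moved as well. For tissue in WT mice of 10 months they were 4 as given above, 3092 with normexp and 2141 in the model of all arrays, and in Tg2576 mice 0, 1041 and 4052. For age in WT whole brain they were 10479, 5244 without the filter and 4760 with the replicate block, and in Tg2576 whole brain 4591, 10142 and 13, with 10146 in the model of all arrays, 7317 with normexp and 1859 with the slide as a block. With the replicate number as a block, 0 members were called for age in Tg2576 whole brain (adjusted p = 0.0815 for Gata2 and Gata3) and 4 for age in WT whole brain, and no other count of called members changed. Leaving out 1 array at a time gave 3 to 6 members without overlap for genotype in 17-month-old cortex, 0 to 1 for tissue in Tg2576 mice of 17 months and 1 to 5 for age in WT cortex, and called 0 to 1 for tissue in WT and in Tg2576 mice of 10 months, 3 to 5 for age in WT whole brain and 0 to 3 in Tg2576 whole brain. No share of all probes was taken for the counts without overlap when an array was left out. Among tested differences, signs changed only for those that were not called. In whole brain of 10 months the slide as a block gave 0.32 for Irx1, 0.49 for Irx2, 0.21 for Irx3 and 0.31 for Irx5, and the mean of all probes gave 0.095 for Irx2. Leaving out 1 array at a time, the difference there ran from -0.56 to 0.014 for Irx1, -0.86 to 0.043 for Irx2, -0.30 to 0.25 for Irx5 and -0.051 to 0.22 for Gata2, and in whole brain of 17 months from -0.28 to 0.026 for Irx5 and from -0.0496 to 0.0022 for App. App ran from -0.099 to 0.039 in cortex of 10 months. Between the ages that difference changed by values that ran from -0.53 to 0.047 for Irx1, -0.85 to 0.047 for Irx2, -0.39 to 0.16 for Irx5 and -0.38 to 0.013 for Gata3, and between the tissues from -0.89 to 0.025 for Irx5. With normexp Irx5 gave 0.11 for genotype in whole brain of 17 months and 0.12 for its change with age. The limits are that 3 arrays per group bound the precision, slide is confounded with tissue or age in several comparisons, and dim probes lie near background, where the cortex differences of 17 months were smaller with normexp. The slide could not be fitted as a block where all arrays shared a slide or each group had a slide of its own.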
